A study of Mus musculus with 16 samples.

Results

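The phase II conjugation enzymes were taken as the genes of the deposited count table whose names begin with Ugt1, Ugt2 or Ugt3, with Sult and a digit, or with Gst and a letter for the alpha, kappa, mu, omega, pi, theta or zeta class and a digit. Of 71 names that matched, 7 were pseudogenes by name, and 10 of the other 64 genes held fewer than 10 reads over the 16 libraries, 6 of them none. The remaining 54 genes, of 55421 in the table, were 18 UDP-glucuronosyltransferases (UGT), 15 cytosolic sulfotransferases (SULT) and 21 glutathione S-transferases (GST), and all 54 entered the test, which ran over 23018 genes. Within this rule the read minimum was the only measured value used. The rule itself was set with earlier results of these data known.

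Poly-A RNA-seq libraries were made from whole liver of male mice, 4 for each of control and HIRA KO before regeneration and 4 for each of them after it. The HIRA chaperone deposits the histone variant H3.3 independently of DNA synthesis. Every mouse, controls included, received an AAV8 virus whose Cre or SaCas9 ran from the hepatocyte promoter Tbg at 6 months of age, followed 4 weeks later by a partial hepatectomy. Each control group pooled 2 wildtype mice given AAV8 Tbg-Cre with 2 wildtype mice given AAV8 SaCas9 with a guide to Rosa26. Each HIRA KO group pooled 2 HIRA fl/fl mice given AAV8 Tbg-Cre with 2 wildtype mice given AAV8 SaCas9 with a guide to HIRA. Tissue from before regeneration was the resected left lateral and median lobes. Tissue from after it was the regrown remainder 5 days on, so lobe and time cannot be told apart. The columns of the tables named group and a number from 1 to 4 and not the deletion approach, so neither approach nor mouse could enter a model. The p-values therefore measure the spread between these libraries.

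UGTs attach glucuronic acid from UDP-glucuronic acid to bilirubin, bile acids, steroids and drugs, SULTs attach sulfate from the donor PAPS to phenols, steroids and alcohols, and GSTs attach the tripeptide glutathione to electrophiles. In liver these reactions make lipophilic compounds water soluble, so that they can leave in bile or urine. The genes lie in clusters of near copies, and hepatocytes express them under xenobiotic receptors such as CAR (Nr1i3), PXR (Nr1i2) and AHR, the oxidative stress factor NRF2 (Nfe2l2) and liver factors such as HNF4α.

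The libraries held between 15103059 and 21738619 counted reads, with a median of 18337571. Hira, the targeted gene, was at 5.21 to 6.18 CPM (reads per gene relative to library size, scaled by edgeR's TMM factors, as are all CPM here) in controls before regeneration, 3.13 to 4.38 in HIRA KO before, 4.99 to 6.29 in controls after and 3.04 to 4.56 in HIRA KO after. The genotypes did not overlap at either time. HIRA KO library 4 was the highest of its group both times, at 4.38 CPM before and 4.56 after regeneration. Cells other than hepatocytes kept the gene by design, and the source of the remaining reads was not tested. The log2 fold change of Hira was -0.70 ± 0.17 (SE) before and -0.69 ± 0.17 after regeneration, with adjusted p of 0.129 and 0.0666 from edgeR's quasi-likelihood test. The summed CPM of 6 hepatocyte genes, Alb among them, was between 98034 and 157317 in every library. The sum hid falls of single genes after against before regeneration. By edgeR's test 2 of the 6 passed lower in controls (lowest log2 fold change -1.95) and 3 in HIRA KO (lowest -1.78). None passed higher, and 10.2% and 12.0% of all genes passed in either direction. In a principal component analysis of 15117 genes, HIRA KO libraries 1 and 2 stood apart from all others at both times. Their scores on the component holding 26.4% of the variance were -52.9 and -37.2 before and -40.7 and -34.4 after regeneration. HIRA KO libraries 3 and 4 scored 0.711 and -1.48 before and 25.2 and 20.2 after. Library numbers are therefore given below, together with values from a fit that kept only HIRA KO libraries 3 and 4. That fit was chosen after the data were seen. Its p-values use a spread estimated without HIRA KO libraries 1 and 2, also for controls. A call gained in it describes the kept libraries and is no independent support. By edgeR in that fit Hira was at -0.59 (adjusted p 0.619) before and -0.58 (adjusted p 0.320) after regeneration against control.

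The promoters of Gsta1, Gsta2, Gstm1 and Gstm3, whose libraries differed widely between groups, and of Sult2a8, the most abundant SULT of control liver before regeneration, are printed to show the sequences beside the values that follow. They are RefSeq sequences of build GRCm38.p6, available for 46 of the 54 members (57 promoters). Each runs from 250 bases before the start to 5 bases into the transcript, 5′ to 3′ on the gene's strand, and capitals mark GCGTG, the core bound by AHR and its partner ARNT. Gstm1 and Sult2a8 have 2 RefSeq starts each, of which the one nearer the annotated gene start is shown. The RefSeq start of Gsta2 lies 8643 bases from the annotated one.
Gsta1 (chr9:78230419-78230673, + strand): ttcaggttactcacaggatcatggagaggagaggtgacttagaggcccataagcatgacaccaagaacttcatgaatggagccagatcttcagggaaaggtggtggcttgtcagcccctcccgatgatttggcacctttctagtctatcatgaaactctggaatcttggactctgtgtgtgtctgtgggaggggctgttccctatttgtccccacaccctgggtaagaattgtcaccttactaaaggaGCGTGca
Gsta2 (chr9:78347141-78347395, - strand): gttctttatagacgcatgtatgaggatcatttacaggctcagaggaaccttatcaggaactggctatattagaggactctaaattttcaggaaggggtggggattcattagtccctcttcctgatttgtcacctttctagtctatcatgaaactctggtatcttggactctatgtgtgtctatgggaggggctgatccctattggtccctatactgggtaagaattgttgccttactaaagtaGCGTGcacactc
Gstm1 (chr3:108017969-108018223, - strand): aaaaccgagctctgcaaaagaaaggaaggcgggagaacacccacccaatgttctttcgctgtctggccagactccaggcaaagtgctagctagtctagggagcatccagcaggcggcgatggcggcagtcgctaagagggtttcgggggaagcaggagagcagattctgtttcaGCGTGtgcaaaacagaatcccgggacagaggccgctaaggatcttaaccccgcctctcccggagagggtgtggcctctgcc
Gstm3 (chr3:107969170-107969424, - strand): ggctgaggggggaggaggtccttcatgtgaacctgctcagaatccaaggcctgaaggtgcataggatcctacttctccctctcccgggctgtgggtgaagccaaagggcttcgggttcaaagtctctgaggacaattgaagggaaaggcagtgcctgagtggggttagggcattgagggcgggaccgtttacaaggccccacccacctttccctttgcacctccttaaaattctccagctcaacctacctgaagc
Sult2a8 (chr7:14446583-14446837, - strand): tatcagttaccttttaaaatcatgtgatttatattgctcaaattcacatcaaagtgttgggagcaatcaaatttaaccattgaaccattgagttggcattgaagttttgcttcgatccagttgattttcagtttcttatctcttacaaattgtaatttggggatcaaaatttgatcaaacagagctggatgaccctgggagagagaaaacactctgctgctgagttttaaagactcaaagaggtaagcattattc

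The full promoters, 250 bases before to 50 after the start, of Gsta1 and Gsta2 were 74.6% identical, and both carried GCGTG close to the start, at -2 and -7. GCGTG, searched on both strands, was found in 12 of the 57 member promoters (21.1%) against 32.4% of 32851 mouse promoters. The antioxidant response element core TGACNNNGC, which NRF2 binds, was found in 3 (5.26%), those of Gsta3, Gstm5 and Gstm7, against 12.4% of all. The HNF4 letters CAAAGTCCA were in 1 member promoter, that of Sult1b1, against 0.475% of all. These matches describe the letters in these windows only.

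Members differed in level over several orders of magnitude. Per length, as deposited FPKM (fragments per kilobase of transcript, scaled to library size), the highest in control liver before regeneration were Gstp1 at 2234 ± 1123 (SD, n = 4), Gstm1 at 1414 ± 226, Gsta3 at 1245 ± 124 and Gstp2 at 1019.7 ± 394, whose 4 ranges overlapped. The place of Gstp2 rests on the FPKM alone. In the counts it held 3982 reads over the 16 libraries, against 512935 for Gstp1. Gstz1, the maleylacetoacetate isomerase of tyrosine breakdown, was at 431 ± 41.4 FPKM. Ugt2b5 at 374 ± 29.6 and Ugt2b36 at 351 ± 35.6 led the UGTs and lay within each other's spread, followed by Ugt1a1, the bilirubin-conjugating enzyme, at 262 ± 18.3 and Ugt2b34 at 138 ± 13.8. Sult2a8 led the SULTs at 321 ± 55.4 FPKM, ahead of Sult1a1, a phenol sulfotransferase, at 184 ± 33.3. At the other end, 10 members stayed under a mean of 1 CPM in every group: Ugt1a2, Ugt1a10, Sult2a1, Sult2a2, Sult2b1, Sult3a1, Sult3a2, Sult4a1, Sult6b1 and Gsto2. Sult5a1 had no FPKM in any library although it had reads.

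Near copies limited how well some members could be counted. On the GENCODE M21 annotation of GRCm38, all 8 Ugt1a members share over 50% of their exonic bases with other Ugt1a genes, because the locus on chromosome 1 joins alternative first exons to a common set of later exons. Of the 50-base windows in the exons of Gsta1, 90.5% also occurred in other genes, 75.7% in Gm3776. The same share was 54.3% for Gstp2, 49.8% for Gsta2, 41.7% for Ugt2b5, 33.7% for Gstp1, 28.8% for Gstm3 and 18.9% for Gstm1. For 23 members it was under 1%, among them Gstp3, Gstk1, Gstz1, Gstt1, Gsta4, Gstm4, Ugt2b35 and Sult1e1. How the counter treated reads that fit several genes was not given in the sources used here. Counts of the Ugt1a genes, Gsta1, Gsta2, Gstp1, Gstp2, Ugt2b5, Ugt2b38, Sult2a1 and Sult2a2 are therefore uncertain as to which copy they came from. For Gstm3, Gstm1 and Ugt2b37 the same holds for a smaller share of their windows.

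The summed level of each family is given as a description, with no test. In controls the summed CPM of the 21 GST genes was 7577, 7339, 6010.4 and 6640 before and 10602, 12445, 16142 and 19965 after regeneration, so that every library from after lay above every library from before. The summed CPM of the 15 SULT genes was 1034 to 1276 before and 483 to 740.2 after, again with no overlap but in the other direction. The 5 Sult1 genes alone summed to 346 to 479 CPM before and 333 to 534 after, so the lower SULT sum came from the Sult2 genes, at 585 to 787 and 80.1 to 193. That of the 18 UGT genes was 3675 to 4226 before and 3499 to 4585 after, with overlap. Before regeneration the HIRA KO libraries had GST sums of 5699.9, 6612, 6168 and 6668. In HIRA KO, libraries 1 and 2 separated from libraries 3 and 4 in all 3 families after regeneration: the GST sum was 3906 and 5258 against 13192 and 17004. The UGT sum was 1913 and 2493 against 4210.4 and 4305, and the SULT sum was 345 and 423 against 609.7 and 557.

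**Figure D1:**
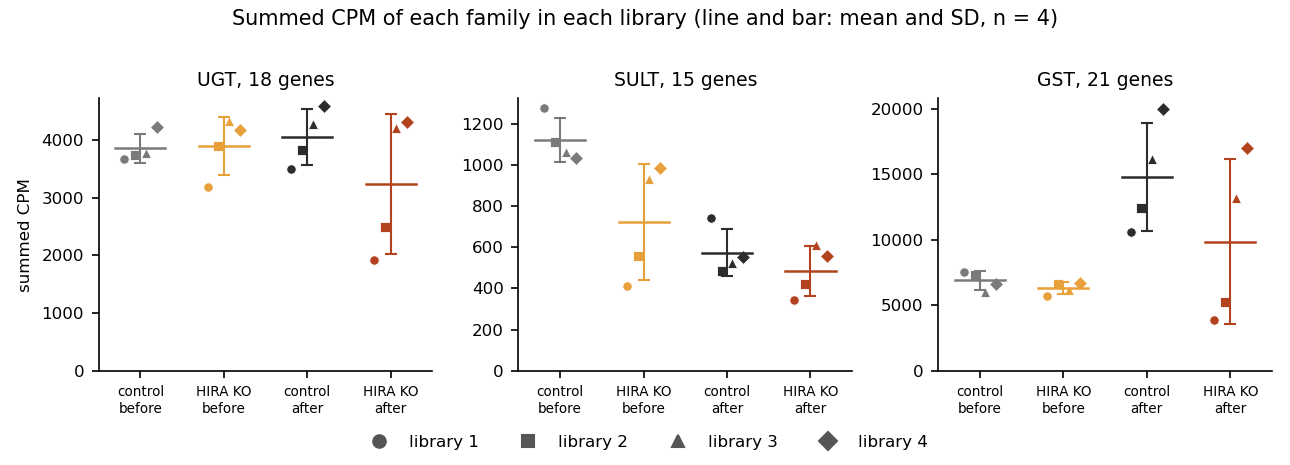
Summed CPM of the UGT, SULT and GST genes (vertical axes, starting at 0) in each library of the 4 groups (horizontal axis), with marker shape for the library number and line and bar for mean and SD. After regeneration the GST sums of controls lie between 10602 and 19965 and those of HIRA KO libraries 1 and 2 at 3906 and 5258.

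Of the 54 members, 12 passed the test in controls after against before regeneration (adjusted p under 0.05, Benjamini-Hochberg over all genes), 8 higher and 4 lower, which is 22.2% against 10.2% of all 23018 genes (6.04% higher and 4.17% lower). Of these, 7 changed by more than 1 on the log2 scale, as did 5.03% of all genes. The groups did not overlap for 22 members, 12 higher and 10 lower, where 19.0% of all genes did not overlap, 10.0% higher and 8.98% lower. In HIRA KO 10 members passed, 6 higher and 4 lower, or 18.5% against 12.0% of all genes (6.48% higher and 5.53% lower), 7 of them by more than 1 on the log2 scale against 5.30% of all genes. There the groups did not overlap for 10 members, 6 higher and 4 lower, against 16.1% of all genes, 8.61% higher and 7.45% lower. The median log2 fold change of the members was 0.14 in controls and -0.003 in HIRA KO, beside 0.003 and 0.02 over all genes. By class, 5 GST genes rose and 2 fell in controls, 2 UGT genes rose and 2 fell, and the only SULT gene called had few reads. In HIRA KO 4 GST genes rose and none was called lower, 1 UGT gene rose and 4 fell, and 1 SULT gene rose. DESeq2, a second test, also called Gsta1 and Gstm1 higher and Gstk1, Gstz1 and Sult5a1 lower in HIRA KO. In controls it also called Gsta2, Gsta4 and Gstm1 higher and Gstt1 and Sult2a8 lower. When only HIRA KO libraries 3 and 4 were kept, the members called were 21 in controls (38.9%) against 16.4% of all genes, and 8 in HIRA KO (14.8%) against 9.54%. In controls, whose own libraries were unchanged, Gstm1, Gstm4, Gstt1, Sult1b1, Sult2a2, Sult2a8, Ugt1a1, Ugt1a6a, Ugt1a6b and Ugt3a2 were then called and Sult3a2 was not. In HIRA KO Gstm1, Sult2a8 and Ugt2b35 were then called. Ugt1a5 (-1.93, adjusted p 0.0562), Ugt1a1 (-0.60, adjusted p 0.0520), Ugt2a3 (-0.34, adjusted p 0.224), Gstp2 (2.29, adjusted p 0.0503) and Sult1e1 were then not called there.

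**Figure D2:**
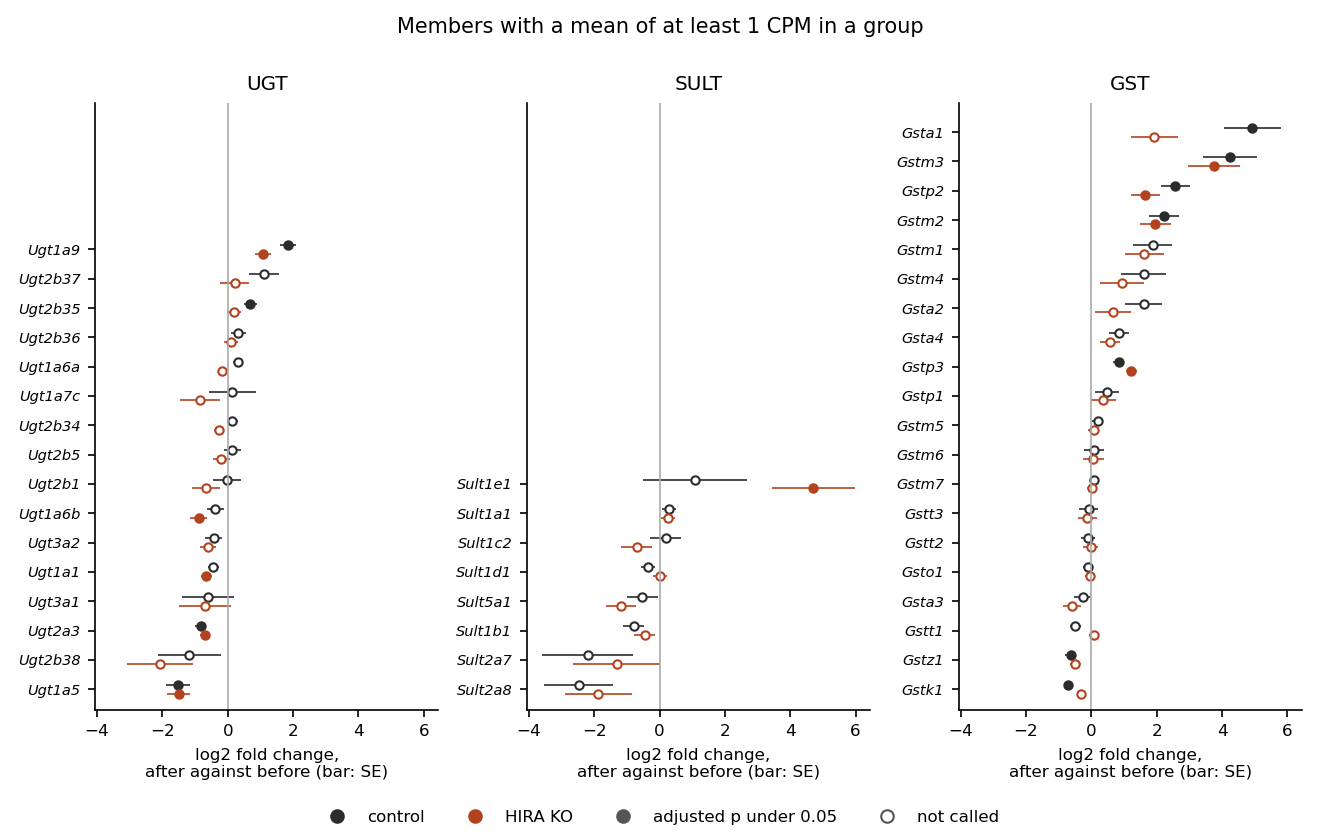
Log2 fold change after against before regeneration (horizontal axis, bar: SE) for the 44 members with a mean of at least 1 CPM in a group, sorted within UGT, SULT and GST by the value in controls. Black is control and red HIRA KO, and filled points have an adjusted p under 0.05. Gsta1, Gstm3, Gstp2 and Gstm2 lie at the top of the GST panel and Gstk1 and Gstz1 at its foot.

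The mu class changed most in level. Gstm1, a main hepatic mu GST on chromosome 3 (108012255 to 108017973, minus strand), was at 2246, 1905, 1607 and 1860.3 CPM in controls before and 4756, 5413, 8087 and 9663 after regeneration. All 4 control libraries from after exceeded all 4 from before. The log2 fold change was 1.87 ± 0.59 with an adjusted p of 0.0612, past the threshold in 5 of 8 other settings and in none of the 8 fits that left out a library. In HIRA KO the gene was at 876, 1110.5, 1533 and 1703 CPM before and 878, 1048, 5439.9 and 8751 after. Libraries 1 and 2 were thus no higher after regeneration than before, and libraries 3 and 4 were within the control range. Over all 4 the log2 fold change was 1.63 ± 0.59 (adjusted p 0.0893 by edgeR, called by DESeq2 with adjusted p 0.0118). With only libraries 3 and 4 it was 2.13 (adjusted p 0.00113).

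Gstm3, its neighbour at 107963696 to 107969283, went from 185, 176, 65.9 and 88.5 CPM to 646, 1813, 3069 and 4269 in controls. It rose by a log2 fold change of 4.25 ± 0.82 (adjusted p 0.00579), and the call held in all 8 fits that left out a library. In HIRA KO it went from 52.1, 70.5, 69.4 and 73.6 CPM to 208, 187, 1805 and 1373, with no overlap, and it rose by 3.75 ± 0.80 (adjusted p 0.00992). Here libraries 1 and 2 were above every HIRA KO library from before, yet below every control library from after. Gstm2 went from 49.1 to 79.8 CPM up to 156 to 534 in controls (log2 fold change 2.23 ± 0.47, adjusted p 0.00846). In HIRA KO it went from 26.1 to 49.4 CPM up to 60.4 to 243 (1.96 ± 0.46, adjusted p 0.0158). Gstm4 was at 69.6 to 83.6 CPM before and 125 to 411 after in controls, which did not pass (1.60 ± 0.68, adjusted p 0.172) but did with only HIRA KO libraries 3 and 4 kept (adjusted p 0.0103). In HIRA KO it was at 24.5 and 35.3 CPM in libraries 1 and 2 against 252 and 204 in libraries 3 and 4 after regeneration. The other mu genes, Gstm5, Gstm6 and Gstm7, had log2 fold changes between 0.02 and 0.20 in both genotypes and none was called.

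Among the alpha genes Gsta1, on chromosome 9 (78230656 to 78242684, plus strand), was nearly silent in control liver before regeneration, at 0.895, 0.538, 1.09 and 2.13 CPM. After regeneration the same group was at 5.57, 15.4, 31.7 and 87.1 CPM. The libraries from after did not overlap those from before but spread widely. The log2 fold change of 4.92 ± 0.88 (adjusted p 0.00416) held in all 8 fits without a library, at 3.90 to 5.37. In HIRA KO Gsta1 was at 15.1, 18.2, 5.30 and 6.76 CPM before and 23.9, 29.3, 65.7 and 54.5 after, again with no overlap. There the log2 fold change of 1.93 ± 0.72 did not pass edgeR's test (adjusted p 0.102) and was called by DESeq2 (adjusted p 0.0332). Its near copy Gm3776, which holds most of its 50-base windows, had the same order of libraries, at 0.269 to 0.769 CPM in controls before and 2.88 to 42.0 after. Gsta2 was at 26.5, 10.1, 17.5 and 50.4 CPM before and 37.3, 43.2, 89.3 and 146 after in controls, which overlapped (1.60 ± 0.57, adjusted p 0.0980, called by DESeq2). Gsta4, which conjugates the lipid peroxidation product hydroxynonenal, was at 61.2 to 90.6 CPM before and 77.0, 78.6, 172 and 219 after in controls (0.85 ± 0.31, adjusted p 0.103, called by DESeq2). Gsta3, the most abundant alpha gene, did not pass in either genotype, with log2 fold changes of -0.27 ± 0.27 and -0.58 ± 0.28. HIRA KO libraries 1 and 2 lay below the others after regeneration at 457 and 963 CPM against 1258 to 1693.

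The pi genes Gstp1, Gstp2 and Gstp3 sit side by side on chromosome 19. Gstp1, the major hepatic GST of male mice, was at 700 to 2288 CPM in controls before and 1835 to 2398 after, which overlapped. It did not pass in either genotype (0.48 ± 0.37 and 0.37 ± 0.37). Gstp3 went from 14.3, 17.5, 11.3 and 18.3 CPM to 33.2, 25.3, 20.8 and 30.7 in controls and from 8.63, 9.20, 9.52 and 11.0 to 23.8, 25.7, 22.7 and 17.4 in HIRA KO. Neither pair of groups overlapped. Gstp3 rose by 0.84 ± 0.17 (adjusted p 0.00420) and 1.22 ± 0.17 (adjusted p 3.62e-04), calls that held in all 8 fits without a library in both genotypes. Gstp2 rose by 2.57 ± 0.44 in controls (1.78 to 6.29 CPM before and 11.0 to 33.4 after, adjusted p 0.00289) and by 1.66 ± 0.43 in HIRA KO (adjusted p 0.0244). These counts came from 30 to 653 reads a library, while the deposited FPKM of the gene was 519 to 2668. On the FPKM scale the log2 change was 0.66 in controls and 0.71 in HIRA KO and was not called.

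Fewer GST genes went down. Gstk1, the mitochondrial and peroxisomal kappa GST, was at 98.0, 94.6, 93.3 and 129 CPM before and 72.5, 66.3, 60.0 and 56.7 after in controls. It fell by 0.70 ± 0.12 on the log2 scale (adjusted p 0.00188), with the call kept in all 8 fits without a library. In HIRA KO the value was -0.32 ± 0.12 (adjusted p 0.101, called by DESeq2). Gstz1 went from 624 to 833 CPM down to 405 to 517 in controls. It fell there by 0.63 ± 0.17 (adjusted p 0.0245, called in 3 of 8 fits without a library). In HIRA KO Gstz1 was at -0.50 ± 0.17 (adjusted p 0.0655, called by DESeq2). None of the theta and omega genes passed in the fit of all libraries. Gstt1 was at -0.48 ± 0.17 in controls, called by DESeq2 and with only HIRA KO libraries 3 and 4 kept (adjusted p 0.0175), and at 0.08 ± 0.17 in HIRA KO.

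**Figure D3:**
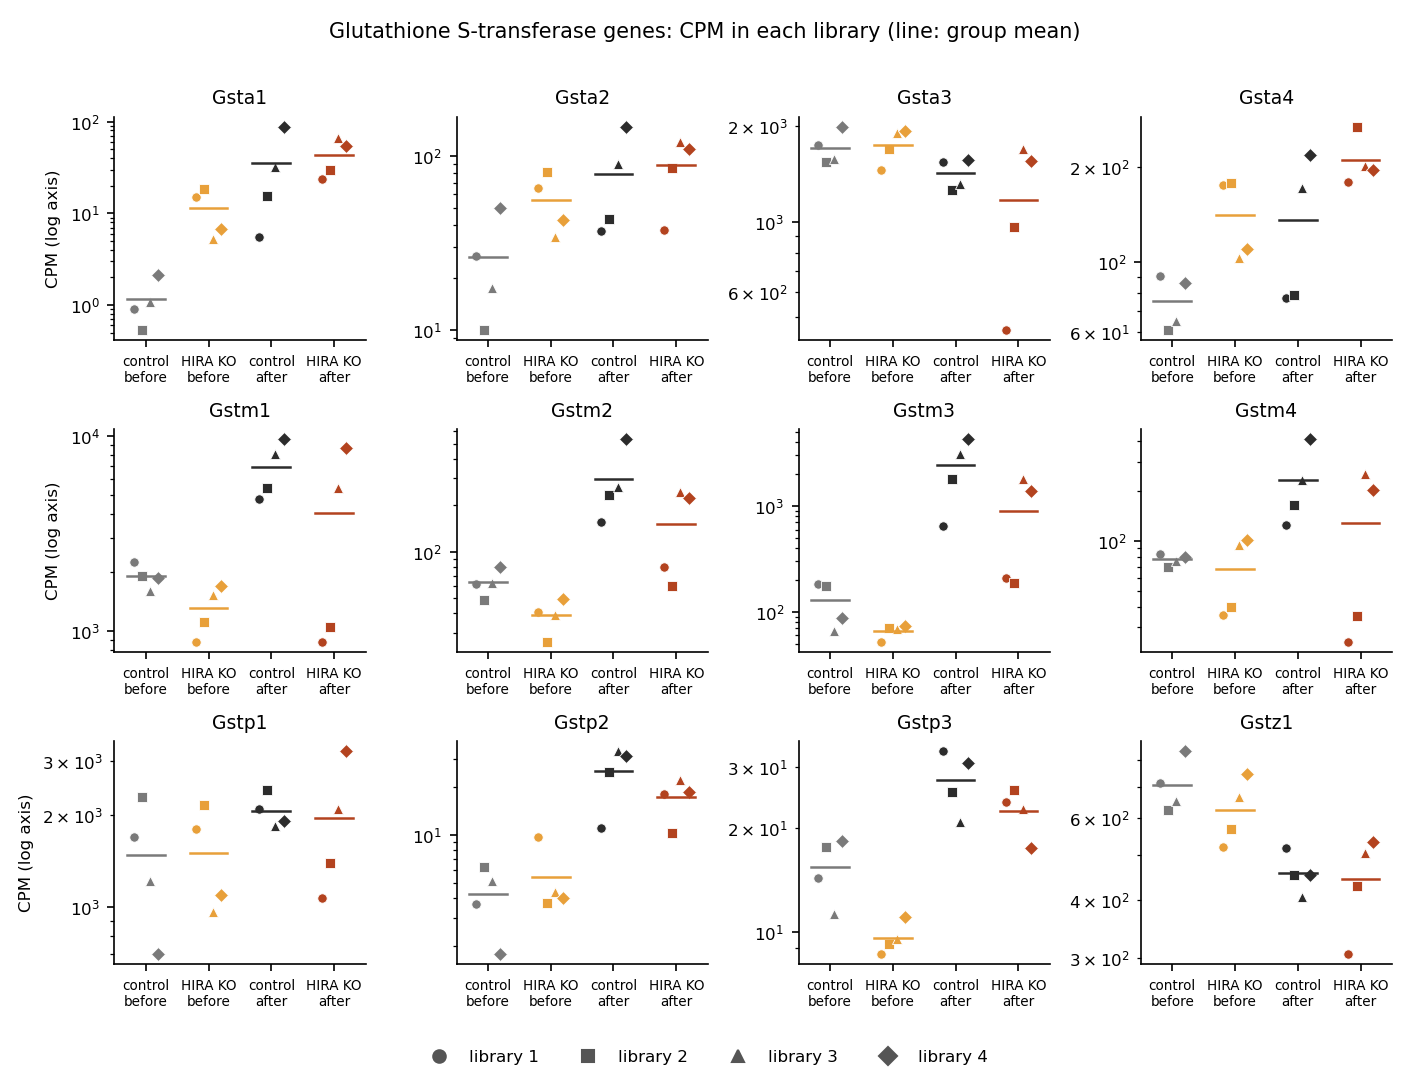
CPM (log vertical axes) of 12 GST genes in each library of the 4 groups (horizontal axis), with marker shape for the library number and a line at the group mean. After regeneration HIRA KO libraries 1 and 2 lie at 878 and 1048 CPM for Gstm1 and libraries 3 and 4 at 5439.9 and 8751, the latter within the range of controls.

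Among the UGTs the clearest riser was Ugt1a9, a UGT1A isoform that conjugates phenols. It was at 32.2, 30.9, 29.9 and 23.0 CPM in controls before and 104, 88.2, 120.0 and 106 after regeneration. The groups were far apart, the log2 fold change was 1.85 ± 0.24 (adjusted p 4.38e-04), and it held in every fit without a library. In HIRA KO Ugt1a9 was at 25.2, 39.8, 25.4 and 18.4 CPM before and 39.0, 48.9, 87.2 and 55.0 after. The lowest value from after was just under the highest from before, and it rose by 1.08 ± 0.24 (adjusted p 0.00890). Ugt1a5 moved the other way, from 35.0, 19.7, 39.1 and 74.5 CPM to 16.1, 16.4, 12.3 and 14.1 in controls. In HIRA KO it went from 42.4, 53.3, 94.0 and 105 to 26.8, 24.8, 32.4 and 19.9. It fell by 1.51 ± 0.37 (adjusted p 0.0178) and by 1.50 ± 0.36 (adjusted p 0.0169), without overlap in either genotype.

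Ugt1a1 was at 205, 169, 191 and 191 CPM before and 156, 101, 166 and 135 after in controls, a log2 fold change of -0.44 ± 0.17 that did not pass (adjusted p 0.125) but did with only HIRA KO libraries 3 and 4 kept (adjusted p 0.0307). In HIRA KO it went from 219.9, 232, 268 and 232 CPM to 98.5, 179, 157 and 172 and fell by 0.65 ± 0.17 (adjusted p 0.0216). Ugt1a6b fell by 0.88 ± 0.26 in HIRA KO (48.7 to 85.2 CPM before and 21.3 to 62.3 after, overlapping, adjusted p 0.0405), a call kept in 2 of 8 fits without a library. In controls the value was -0.38 ± 0.26. Ugt1a6a, which joins the same later exons, was at 0.30 ± 0.13 in controls and -0.18 ± 0.13 in HIRA KO. Neither passed in controls with all libraries, and both did with only HIRA KO libraries 3 and 4 kept (adjusted p 0.0318 for Ugt1a6b and 0.0342 for Ugt1a6a).

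On chromosome 5, where the Ugt2 genes lie together, Ugt2a3, a bile acid conjugating enzyme, went from 315, 243, 223 and 243 CPM to 155, 150.1, 131 and 142 in controls and from 261, 318, 208 and 237 to 116, 167, 162 and 190.2 in HIRA KO. Neither pair overlapped. Ugt2a3 fell by 0.82 ± 0.16 (adjusted p 0.00359) and by 0.69 ± 0.16 (adjusted p 0.0101), in all 8 fits without a library in each. Ugt2b35 rose in controls from 216 to 265 CPM up to 331 to 422 (0.69 ± 0.20, adjusted p 0.0392, called in 1 of 8 fits without a library) and was at 0.20 ± 0.20 in HIRA KO, or 0.58 (adjusted p 0.0278) with only libraries 3 and 4. For the most abundant UGTs the log2 fold changes in controls were 0.14 ± 0.26 for Ugt2b5, 0.33 ± 0.22 for Ugt2b36 and 0.14 ± 0.16 for Ugt2b34. None of the 3 was called in any fit. After regeneration HIRA KO libraries 1 and 2 were below every control library for Ugt2b5 (380.1 and 443 against 640.0 to 1066 CPM) and Ugt2b36 (451 and 562 against 777 to 1084). Libraries 3 and 4 were within the control range.

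Ugt3a1 and Ugt3a2, which use UDP-N-acetylglucosamine and UDP-glucose or xylose in place of UDP-glucuronic acid, were not called in any comparison of all libraries. Ugt3a2 was at 429.5 to 502 CPM before and 322 to 382 after in controls, with no overlap (-0.43 ± 0.25, adjusted p 0.314), and was called there with only HIRA KO libraries 3 and 4 kept (adjusted p 0.0106). Ugt3a1 nevertheless had its HIRA KO libraries in 2 clusters, at 21.7, 26.3, 87.2 and 84.2 CPM before and 3.40, 5.37, 57.4 and 69.4 after regeneration. Controls were at 57.1 to 99.7 before and 38.8 to 60.3 after. Libraries 1 and 2 lay below every control library at both times and libraries 3 and 4 did not. Ugt3a2 had the same order after regeneration, at 119 and 191 CPM in libraries 1 and 2 against 301 and 376 in libraries 3 and 4.

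**Figure D4:**
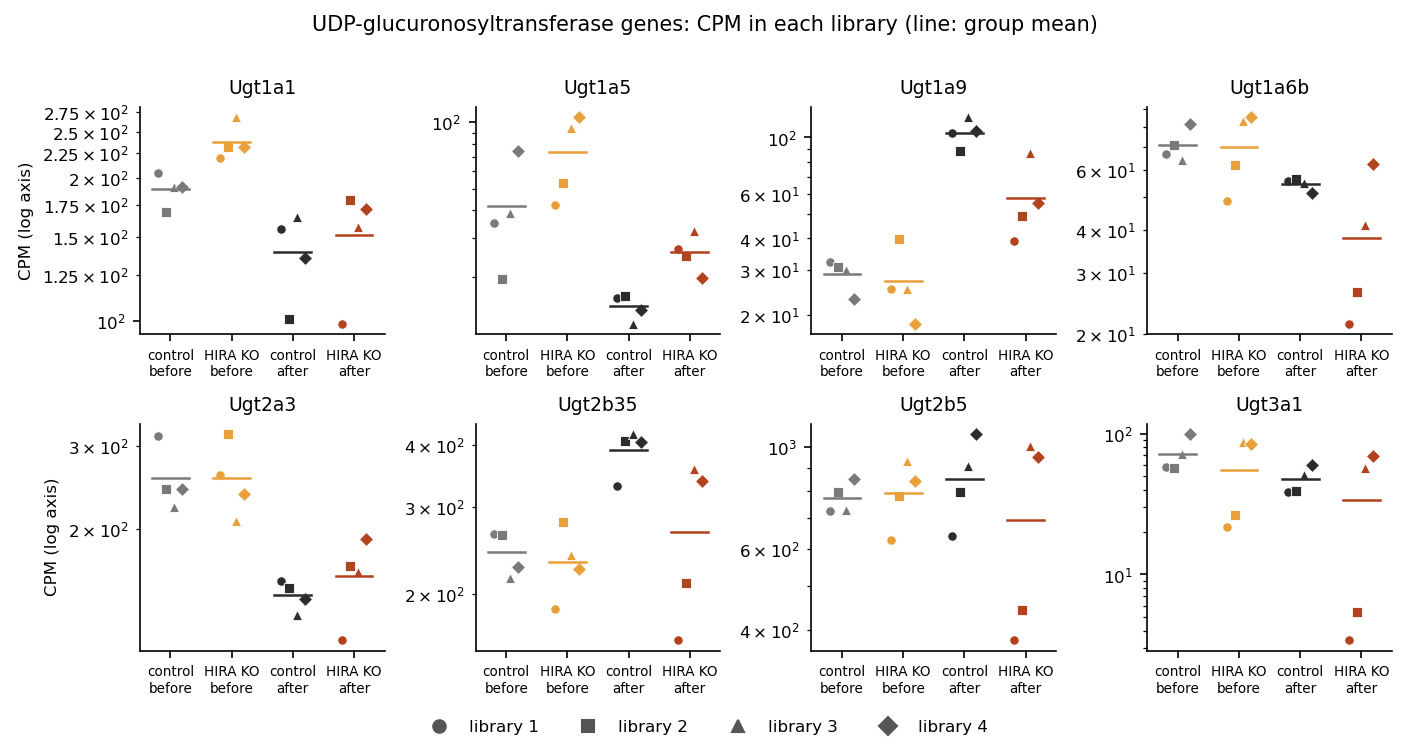
CPM (log vertical axes) of 8 UGT genes in each library of the 4 groups (horizontal axis), with marker shape for the library number and a line at the group mean. Ugt1a9 lies at 88.2 to 120.0 CPM in controls after regeneration, above every other library, and Ugt3a1 at 3.40 and 5.37 CPM in HIRA KO libraries 1 and 2 after regeneration.

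SULT levels were carried by few genes, and Sult2a8, a hepatic sulfotransferase of bile acids on chromosome 7 (14410686 to 14446769, minus strand), carried most of the sum in controls and HIRA KO libraries 3 and 4 before regeneration. Its control libraries were at 786, 756, 668 and 571 CPM before and 191, 139.7, 79.1 and 90.2 after regeneration, with every library from after below every library from before. Even so the log2 fold change of -2.48 ± 1.05 did not pass in the edgeR fit over all 16 libraries (adjusted p 0.172). DESeq2 called Sult2a8 in controls (adjusted p 0.0469). Its HIRA KO libraries 1 and 2 were at 114 and 221 CPM before and 2.22 and 8.17 after. Libraries 3 and 4 were at 566 and 582 before and 170.1 and 224 after. Over all 4 HIRA KO libraries edgeR did not call Sult2a8 after against before. Nor was it called in the 8 fits without a library (-2.62 to -1.47) or the 8 other settings (-3.31 to -1.86). With only HIRA KO libraries 3 and 4 kept, a choice made after seeing the data, the value in HIRA KO was -1.54 (adjusted p 0.0228). The value in controls was then -2.48 again, with an adjusted p of 1.70e-04 from the smaller spread of that fit. Sult2a7, next to it, showed the same split after regeneration, with no read in HIRA KO libraries 1 and 2 and 70 and 67 reads in libraries 3 and 4.

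Of the other SULTs above 1 CPM, Sult1a1 was at 212 to 342 CPM before and 238 to 409.8 after in controls (0.29 ± 0.21). Sult1d1, which acts on catecholamines and phenols, was at 89.5 to 129 and 68.5 to 102 CPM (-0.36 ± 0.21). Sult1b1, a thyroid hormone sulfotransferase, was at 20.7 to 36.6 and 12.2 to 18.8 CPM (-0.79 ± 0.32). None of these 3 passed, although the Sult1b1 libraries did not overlap and Sult1b1 was called with only HIRA KO libraries 3 and 4 kept (adjusted p 0.0133). Sult1e1, the estrogen sulfotransferase, was called in HIRA KO (4.71 ± 1.26, adjusted p 0.0280). Its reads were 372 and 121 in libraries 1 and 2 after regeneration, 14 and 2 in libraries 3 and 4 and 0 to 11 in each of the other 12 libraries. With only libraries 3 and 4 the log2 fold change was 1.96 (adjusted p 0.385). Sult3a2, the SULT called in controls, held 27 and 8 reads in control libraries 1 and 2 after regeneration, 0 and 1 in libraries 3 and 4 and none before. Its neighbour Sult3a1 held 39 and 10 reads in the same libraries. No fold is given for Sult3a2, since no control library had a read before regeneration.

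**Figure D5:**
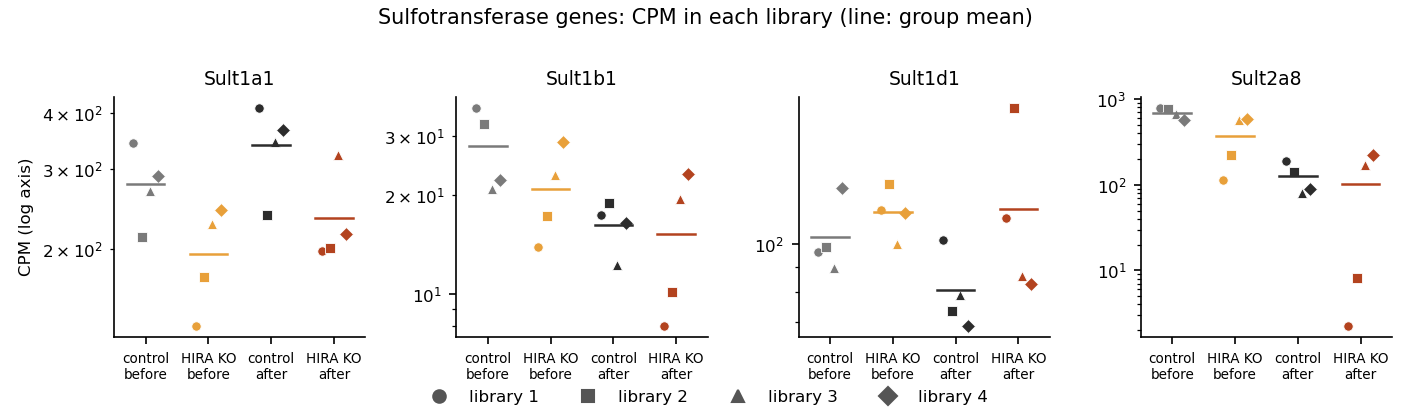
CPM (log vertical axes) of Sult1a1, Sult1b1, Sult1d1 and Sult2a8 in each library of the 4 groups (horizontal axis), with marker shape for the library number and a line at the group mean. Sult2a8 lies at 571 to 786 CPM in controls before regeneration, 79.1 to 191 after it, and 2.22 and 8.17 in HIRA KO libraries 1 and 2 after it.

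Whether loss of HIRA itself moved these enzymes was asked by comparing HIRA KO with control at each time. Before regeneration no member passed edgeR's test, where 0.0391% of all genes did (9 of 23018, 0.0348% higher and 0.00434% lower). At an unadjusted p under 0.05 there were 12 members, or 22.2% against 13.2% of all genes. DESeq2 called 3 of the 44 members to which it gave an adjusted p (6.82% against 2.37% of all genes): Gsta1, Ugt2b37 and Gstp3. The 4 HIRA KO and 4 control libraries did not overlap for 6 members, 5 higher and 1 lower, or 11.1% against 8.07% of all genes (3.54% higher and 4.53% lower). Gsta1 was at 5.30 to 18.2 CPM in HIRA KO against 0.538 to 2.13 in controls (log2 fold change 3.30 ± 0.86, adjusted p 0.176). Its libraries 1 and 2 were at 15.1 and 18.2 CPM, and the value was 2.39 with only libraries 3 and 4. Gsta4 was at 175, 178, 103 and 109.9 CPM against 61.2 to 90.6 (0.90 ± 0.31, adjusted p 0.264), and 0.49 with only libraries 3 and 4. Gstp3 was at 8.63 to 11.0 CPM against 11.3 to 18.3 (-0.68 ± 0.17, adjusted p 0.147), and -0.58 with only those libraries. The other 3 members without overlap were Ugt1a1 (219.9 to 268 CPM against 169 to 205), Gstm5 (13.1 to 17.7 against 7.28 to 12.4) and Sult4a1, which had few reads. Median log2 fold change was 0.01 over the members and 0.01 over all genes.

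After regeneration no member passed edgeR's test, where 0.491% of all genes did (113 of 23018, 0.200% higher and 0.291% lower). There were 14 members at an unadjusted p under 0.05, or 25.9% against 15.8% of all genes. DESeq2 called 3 of 44 (6.82% against 5.93% of all genes), namely Gstk1, Ugt1a9 and Sult1e1. Libraries did not overlap for 7 members, 5 higher and 2 lower, or 13.0% against 8.10% of all genes (3.65% higher and 4.45% lower). Ugt1a9 was at 39.0 to 87.2 CPM in HIRA KO against 88.2 to 120.0 in controls (-0.86 ± 0.24, adjusted p 0.0975), and -0.56 with only libraries 3 and 4. Gstk1 was at 77.6 to 94.0 CPM against 56.7 to 72.5 (0.44 ± 0.12, adjusted p 0.0986). Ugt1a5 was at 19.9 to 32.4 CPM against 12.3 to 16.4 (0.82 ± 0.36, adjusted p 0.289), and its deposited FPKM did not overlap either. Ugt1a7c was at 0.723 to 1.54 CPM against 0.336 to 0.709 (1.09 ± 0.66, adjusted p 0.451), while its FPKM, at 5.76 to 14.5 against 8.21 to 11.0, overlapped. The remaining members without overlap were Gstm7 (72.8 to 78.5 CPM against 52.7 to 71.6), Sult2b1 and Sult2a2, the last pair with few reads.

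The median over the members was -0.24 after regeneration, beside 0.02 over all genes, and 0.09 when only HIRA KO libraries 3 and 4 were kept. The interaction, which sets the difference of HIRA KO from control after regeneration against that before it, called no member and no gene at all (0.0% of 23018 by edgeR, and 0 of 44 members by DESeq2, which called 0.413% of all genes). At an unadjusted p under 0.05 there were 5 members, or 9.26% against 6.81% of all genes. Its lowest value among the GST genes was that of Gsta1, at -3.00 ± 1.10 (adjusted p 0.613). Gsta1 was nearly silent in controls before regeneration and its reads are uncertain as to copy. Values of the SULT genes, some of few reads, ran from -6.55 to 3.62.

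Of the other genes of conjugation, in a list of cofactor supply, glutathione metabolism, further conjugating enzymes, partner enzymes, exporters and regulators, 84 of 85 were tested. In controls 21 passed after against before regeneration, 10 higher and 11 lower, or 25.0% against 10.2% of all genes. In HIRA KO 15 passed, 5 higher and 10 lower, or 17.9% against 12.0%. The largest of these rises in controls were of partner enzymes. Cbr3, a carbonyl reductase, was at 0.343 to 0.888 CPM before and 3.88, 9.63, 31.0 and 115 after (5.98 ± 1.48, adjusted p 0.0227). Nqo1, a quinone reductase and standard NRF2 target, was at 6.53 to 10.3 CPM and 20.9, 28.4, 62.6 and 133 (2.82 ± 0.71, adjusted p 0.0245). Cbr1, another carbonyl reductase, was at 44.6 to 74.6 and 88.5 to 453 CPM (1.94 ± 0.46, adjusted p 0.0156). Akr1b7 rose by 4.11 ± 1.13 and the exporter Abcc4 by 1.42 ± 0.36, with adjusted p of 0.0333 and 0.0216. Of the 8 fits without a library, Cbr3 was called in 3, Nqo1 in 2, Cbr1 in 7, Akr1b7 in 2 and Abcc4 in 5, and the value of Akr1b7 was as low as 1.49 in another setting. Among the controls after regeneration library 1 was the lowest and library 4 the highest for Cbr3 and Nqo1, as for Gsta1 and Gstm3. In HIRA KO Nqo1 was at 8.88 and 12.7 CPM in libraries 1 and 2 against 78.4 and 34.1 in libraries 3 and 4.

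Among the falls, 3 in controls and 2 in HIRA KO were of other conjugating enzymes, 4 and 2 of partner enzymes, and 1 and 4 of regulators. Inmt, which methylates indoles and thioethers, went from 284 to 476 CPM down to 44.2 to 83.6 in controls (fell by 2.55 ± 0.31, adjusted p 2.19e-04). In HIRA KO it went from 524 to 822 down to 139 to 439.8 (fell by 1.06 ± 0.30, adjusted p 0.0303), a call kept in 4 of 8 fits without a library and lost with only libraries 3 and 4 (-0.69, adjusted p 0.183). Gnmt, the glycine methyltransferase that buffers methyl groups, fell by 1.22 ± 0.33 in controls (adjusted p 0.0268), Acsm3 by 0.99 ± 0.21 (adjusted p 0.00675), and the esterases Ces1d by 1.31 ± 0.37 (adjusted p 0.0331) and Ces2a by 1.04 ± 0.21 (adjusted p 0.00432). Ces1d was called in 0 and Gnmt in 4 of the 8 fits without a library. In HIRA KO Ces1d fell by 1.26 ± 0.37 (adjusted p 0.0367), Ces2a by 0.95 ± 0.21 (adjusted p 0.00751) and Ahcy, which clears S-adenosylhomocysteine, by 0.87 ± 0.22 (adjusted p 0.0177). There Ggct rose by 0.83 ± 0.17 (adjusted p 0.00518), Gpx4 by 0.51 ± 0.16 (adjusted p 0.0461) and the PAPS transporter Slc35b3 by 0.38 ± 0.12 (adjusted p 0.0450). With only HIRA KO libraries 3 and 4 the calls of Ces2a (-0.69, adjusted p 0.159), Ggct (0.61, adjusted p 0.0876), Gpx4 (0.64, adjusted p 0.0963) and Slc35b3 (0.46, adjusted p 0.0755) were lost. Without 1 library Ces1d was called in 4, Gpx4 in 1 and Slc35b3 in 2 of 8 fits.

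Against control, 3 of these 84 genes passed after regeneration (3.57% against 0.491% of all genes) and none before (against 0.0391%). Before regeneration edgeR left 12 at an unadjusted p under 0.05 (14.3% against 13.2% of all genes). DESeq2 called 2 of 82 there (2.44% against 2.37%). Libraries did not overlap for 18, 12 higher and 6 lower, or 21.4% against 8.07%. After regeneration 22 were at an unadjusted p under 0.05 (26.2% against 15.8%) and DESeq2 called 11 of 82 (13.4% against 5.93%). There 7 did not overlap (8.33% against 8.10%). Inmt was at 139, 439.8, 315 and 419 CPM in HIRA KO against 83.6, 55.1, 62.8 and 44.2 in controls (2.42 ± 0.31, adjusted p 0.00455), with no overlap and 2.58 when only libraries 3 and 4 were kept. Abcc2, the canalicular exporter of glucuronides and glutathione conjugates, was at 353, 505, 599 and 527 CPM against 711 to 953 (fell by 0.80 ± 0.16, adjusted p 0.0392), again without overlap, and -0.61 with only those libraries (adjusted p 0.181). Ggt1, which breaks down glutathione, was at 0.557 to 3.31 CPM against 0.0573 to 0.251 (3.11 ± 0.58, adjusted p 0.0383), and 1.99 (adjusted p 0.208) with only libraries 3 and 4. It was called in 2 of the 8 fits without a library, as was Abcc2. The interaction called none of the 84, with 3 at an unadjusted p under 0.05 (3.57% against 6.81% of all genes). DESeq2 called 0 of 82 (against 0.413%).

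Of the regulators, Nr1i3 (CAR) was at 4.13, 5.73, 75.1 and 64.0 CPM in HIRA KO before and 4.89, 8.88, 46.6 and 58.4 after regeneration, against 45.6 to 82.4 and 25.3 to 62.0 in controls. Libraries 1 and 2 were thus below every control library at both times, the same libraries in which Sult2a8, Ugt3a1, Gstm4 and Gstm1 were low. Other members were higher in them than in HIRA KO libraries 3 and 4, namely Gsta1 and Gsta4 before regeneration and Sult1e1 after it. Whether Nr1i3 bears on any member was not tested. Over all 4 libraries Nr1i3 did not pass (-0.80 ± 0.91 before and -0.74 ± 0.91 after), and with only libraries 3 and 4 the values were 0.10 and 0.08. Cyp2b10, a standard CAR target, was at 37.0, 46.7, 27.5 and 31.6 CPM in HIRA KO before and 55.2, 132, 23.1 and 27.1 after. These were above controls, at 1.18 to 14.4 and 2.12 to 7.73. The 8 P450 genes listed as receptor targets, Cyp2b10 among them, did not move together. Their log2 fold changes against control ran from -0.65 to 2.58 before (median 0.38) and -0.86 to 3.61 after (median -0.09). None of the 8 passed edgeR's test at either time, against 0.0391% and 0.491% of all genes. Ahr rose in controls after regeneration by 0.53 ± 0.14 (23.6 to 31.6 CPM before and 36.4 to 42.6 after, adjusted p 0.0217). Nfe2l2 was at -0.33 ± 0.15 and -0.39 ± 0.15 after regeneration in controls and HIRA KO, Nr1i2 at -0.33 ± 0.18 and 0.15 ± 0.18 and Hnf4a at -0.14 ± 0.19 and -0.13 ± 0.19, and none of these passed. Ppara fell in HIRA KO by 0.87 ± 0.26 (adjusted p 0.0427, called in 3 of 8 fits without a library). Cux2, a factor known for female-biased liver expression, was at 12.2 and 11.5 CPM in HIRA KO libraries 1 and 2 after regeneration and at 0.569 and 0.612 in libraries 3 and 4.

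Markers of some other liver cells moved beside these values. All 5 Kupffer cell genes (Clec4f, Cd5l, Vsig4, C1qa and C1qb) passed higher after regeneration in both genotypes. Of all genes 6.04% passed higher in controls and 6.48% in HIRA KO. In controls the summed CPM of the Kupffer cell genes went from 137 to 359 up to 585 to 756. In HIRA KO it went from 172 to 213 up to 575 to 903, and none of the genes was at 0 in any library. The 5 cholangiocyte genes summed to 143 and 97.0 CPM in HIRA KO libraries 1 and 2 before regeneration against 47.7 to 73.7 in the other libraries from before, with Krt19 at 52.7 CPM in library 1. The 6 stellate cell genes summed to 511 and 402 against 186 to 223. After regeneration both sums overlapped between genotypes. The cholangiocyte sum was then 71.3 to 114 CPM in controls and 81.1 to 131 in HIRA KO, the stellate sum 154 to 371 and 283 to 427. None of the 6 stellate, 4 endothelial or 4 T and NK cell genes was called in any comparison. Of 3 B cell genes 1 was called, and of the 5 cholangiocyte genes 1, both higher after regeneration in controls. Of the 10 genes known for higher expression in male liver and the 10 in female liver, the sums also varied. The male-biased sum was 4105 to 15696 CPM in controls before regeneration, 4364 to 6900 in HIRA KO before, 2249 to 11726 in controls after and 2443 to 6759 in HIRA KO after. The female-biased sum was 6.83 to 88.3, 99.3 to 131, 23.0 to 699.8 and 132 to 492 in the same order. Control library 4 had the lowest male-biased and the highest female-biased sum of the controls at both times. It was the highest control library for Gsta1, Gsta2, Gstm1, Gstm2 and Gstm3 after regeneration. The part of these shifts in the member results was not tested, and in whole liver fewer cells of a type and less RNA per cell cannot be told apart.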

How the data were processed

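Gene counts were deposited as raw read counts per gene: the authors trimmed reads where needed, aligned them to mm10 with STAR and counted them with HOMER per the paper's methods, while the submitters' processing notes list STAR, HTSeq and Cufflinks. The FPKM values are a second table deposited by the authors, whose tool is not stated in the methods, and they are not the counts divided by a length. FPKM cells left blank, 48.6% to 54.7% per library, were read as 0. The kit was directional, but whether counting used strand, and the annotation release, are not given in the sources used here.

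Counts of genes with at least 10 reads over 16 libraries were fitted with edgeR 4.0.16 (R 4.3.3; TMM factors, robust quasi-likelihood, 1 mean per group in a model of all 16 libraries), and p-values were adjusted by Benjamini-Hochberg over 23018 genes. SE was taken from F, whose root is the ratio of a log2 fold change to its SE. The method was tested on counts simulated with 1 mean per group. For HIRA KO against control before regeneration it called 68% of 100 genes changed by 1 on the log2 scale. It called 96% of 100 changed by 2, with 11 false calls. The simulation lacked the split among HIRA KO libraries, so it does not show how many such changes would be called here. The interaction is the HIRA KO effect after minus that before regeneration. Alternatives were DESeq2 1.42.0, limma 3.58.1 on log2(FPKM + 1) and log2(FPKM + 0.1) for genes with a mean FPKM of at least 0.1, RLE size factors, no filter, filterByExpr, a fit without robust estimation, a fit of only the compared groups, and leaving out each library. Keeping only HIRA KO libraries 3 and 4 was chosen after seeing the data. All pairs of libraries within a group differed by more than sampling noise (chi-square per degree of freedom 12.4 to 134.5 over 24 pairs).

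Members and lists were chosen with earlier results of these data known. Genes named by rule were up to 10 called members per direction and comparison with a mean of at least 1 CPM, the 4 members of each family with the highest FPKM, members without overlap between HIRA KO and control and a log2 fold change of at least 0.5, Hira, up to 5 called pathway genes per direction, and the regulators Nr1i3, Nr1i2, Ahr, Nfe2l2 and Hnf4a. Every other gene given with values, such as Gstm4, Gsta2, Ugt3a1, Sult2a7, Gm3776, Cux2 and Cyp2b10 where no call names it, was chosen after its values were seen. Exons shared between genes came from GENCODE M21 on GRCm38, which matched 54587 of 55421 gene IDs and all 54 members.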

Additional observations from a re-analysis of the deposited data

Results flagged for a closer look

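Of 104 checks of whether the highest or lowest of 4 libraries stood far from the others, on log2(CPM + 1) of the named members, 5 passed Dixon's critical ratio of gap to range at the 95% level, and chance gives about 1 in 20. Control library 4 before regeneration was the high one for Gstk1 (129 CPM against 93.3 to 98.0, ratio 0.848) and for Ugt2b36 (851 against 664 to 691, ratio 0.84), and it was also the control library of lowest male-biased and highest female-biased sum at that time. HIRA KO library 1 before regeneration was the low one for Gstm3 (52.1 CPM against 69.4 to 73.6, ratio 0.83) and the high one for Gstp2 (9.63 against 3.73 to 4.35, ratio 0.849). Control library 1 after regeneration was the low one for Ugt2b35 (331 CPM against 405 to 422, ratio 0.835). The fits that left these libraries out are part of the ranges given with the alternatives.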

How the results depend on the processing

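No paired analysis was possible because the columns carry a running number that is in no label, so that neither the mouse nor the deletion approach could be tied to a column. It is therefore unknown whether HIRA KO libraries 3 and 4 come from 1 deletion approach, set against controls pooled from both. Among the values of single named genes under all alternatives, 2122 kept their sign and their side of the threshold, 122 changed sign with neither value called, 183 lost and 27 gained a call with the same sign, and 1 called value reversed: Cux2 after against before regeneration in HIRA KO, at -0.0751 (adjusted p 0.951) with only HIRA KO libraries 3 and 4 kept. That alternative also held 24 of the 122 changes of sign, among them HIRA KO against control for Nr1i3 before (-0.80 to 0.10) and after regeneration (-0.74 to 0.08), and after regeneration for Gstm1 (-0.79 to 0.02), Sult2a8 (-0.31 to 0.66) and Gsta3 (-0.28 to 0.19).

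For the 54 members, DESeq2 called 3 in HIRA KO against control before and 3 after regeneration where edgeR called none, a fit of only the compared groups called 4 in HIRA KO after against before where the fit of all libraries called 10, and with only HIRA KO libraries 3 and 4 the count in controls was 21 in place of 12. Leaving out 1 library gave 0 to 2 members for HIRA KO against control after regeneration (1 without HIRA KO library 3 and 2 without library 4, both from after) and 5 to 12 for HIRA KO after against before (6 without HIRA KO library 3 and 5 without library 4, both from before). For the 84 other pathway genes, HIRA KO against control before regeneration had 2 calls by DESeq2 and 1 each with no filter on low counts, with only HIRA KO libraries 3 and 4 and with only the compared groups, in place of 0. After regeneration the 3 calls became 11 by DESeq2, 1 by limma with either pseudocount, 1 with only HIRA KO libraries 3 and 4, 0 with only the compared groups, and 1 to 11 without 1 library. In controls after against before the 21 calls became 34 by DESeq2, 32 with only HIRA KO libraries 3 and 4, and 9 to 22 without 1 library. In HIRA KO the 15 calls became 23 by DESeq2, 7 by limma on log2(FPKM + 1), 9 with no filter, 7 with only the compared groups, and 5 to 16 without 1 library. The share of all genes called moved as well. By DESeq2 it was 2.37% and 5.93% for HIRA KO against control before and after regeneration, where edgeR called 0.0391% and 0.491%. After against before, with only HIRA KO libraries 3 and 4, it was 16.4% in controls and 9.54% in HIRA KO. The fit of all libraries gave 10.2% and 12.0%. No such share is given for the other settings, so those counts do not single out these genes. The cause of these shifts was not tested. The remaining alternatives left these counts within a factor of 1.5.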
